A study of Homo sapiens with 9 samples.

Results

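The rows KRT8 (XLOC_005786) and KRT18 (XLOC_005129) carry the names of the keratin pair of simple epithelia, and they are 2 of the 26008 gene rows in a table of RNA-seq counts from HCT8 cells. They were found by name but chosen by measured values, namely the KRT8 row's large share of all counts and its lower level with V. cholerae vesicles. Those values are therefore given as a description. HCT8 is an established human epithelial line from an ileocecal colorectal adenocarcinoma. Cells seeded 16 h before received membrane vesicles, shed by Vibrio cholerae C6706 or by Escherichia coli MC1061, for 5 h. Controls, which the labels also call untreated, received 20 mM Tris-HCl. Each group has 3 libraries of polyadenylated RNA. The vesicle dose was not given in the sources used here. No label ties replicates to separate cultures, and p-values therefore measure only the spread among these libraries, which may be technical.

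Keratins form intermediate filaments, the tough cytoplasmic network that gives epithelial cells mechanical strength. A filament is built from obligate pairs of a type II and a type I keratin, and KRT8 (type II) and KRT18 (type I) are the first such pair made in the embryo and the main pair of gut, liver and other single-layered epithelia. The pair protects these cells against mechanical and toxic stress, and an unpaired keratin is degraded. In the human genome both genes lie side by side, in opposite directions, so that the KRT8 gene's upstream exons reach into KRT18.

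In the GENCODE 29 annotation of GRCh38, KRT18 lies on the plus strand at chr12:52948871-52952901 and KRT8 on the minus strand at chr12:52897187-52949954. The counts were made on hg19, so these positions only place the genes. The main 9-exon KRT8 transcript begins 42253 nt from the start of the main KRT18 transcript, and their exons share no bases. Of the 17 annotated KRT8 transcripts, 7 start within KRT18 and have exons opposite those of the main KRT18 transcript. In all, 525 exonic nt of both genes overlap on opposite strands, which is 16.3% of the exonic bases of KRT18 and 7.63% of those of KRT8. KRT18 is the only annotated gene with exons opposite KRT8 exons, so reads opposite the rest of KRT8 have no annotated row.

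**Figure D1:**
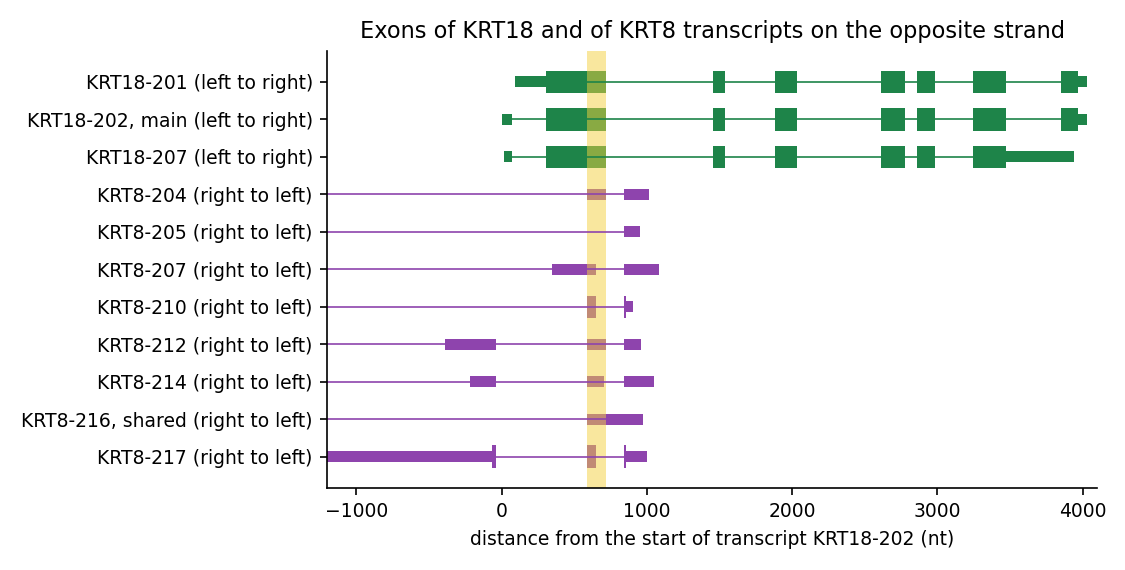
Exons of 3 KRT18 transcripts (green) and of the KRT8 transcripts that reach KRT18 (purple). The axis is the distance in nt from the start of the main KRT18 transcript. Thick boxes are coding exons, thin boxes are other exons and lines between exons are introns. Some of these KRT8 transcripts end inside KRT18 or near its start. For them a purple line past the last exon is not an intron. The yellow band is the stretch of 135 nt shared by exon 2 of the main KRT18 transcript and the non-coding exon 1 of a coding KRT8 transcript, and 7 KRT8 transcripts have exon bases opposite the main KRT18 transcript.

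The stretch shared by the main KRT18 transcript and a KRT8 transcript that starts inside KRT18 is shown because a 50-base read from it falls in an exon of both genes and only its strand says which row it belongs to. It covers bases 352 to 486 of the 1420 nt of the main KRT18 transcript, inside the coding sequence (bases 70 to 1362), and bases 253 to 387 of the KRT8 transcript, in its first exon, which the annotation gives as untranslated. Capitals mark the 112 bases that lie in 50-base stretches also found exactly in transcripts of other genes. The letters were read from the GENCODE 29 transcripts of each gene, 5′ to 3′.
KRT18 strand: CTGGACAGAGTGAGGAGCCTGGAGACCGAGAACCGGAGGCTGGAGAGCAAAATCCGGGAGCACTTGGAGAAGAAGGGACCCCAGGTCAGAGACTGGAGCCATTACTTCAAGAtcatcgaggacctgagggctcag
KRT8 strand: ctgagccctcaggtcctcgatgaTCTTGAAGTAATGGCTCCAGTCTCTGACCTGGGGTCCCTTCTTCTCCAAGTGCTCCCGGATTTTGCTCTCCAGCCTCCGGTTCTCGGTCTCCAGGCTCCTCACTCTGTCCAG
Of the 86 stretches of 50 bases in this window, 29 (33.7%) were also in the pseudogenes KRT18P10, KRT18P16 or KRT18P38. Over the whole main KRT18 transcript the share was 35.1%, with matches in 44 other genes, and over the main KRT8 transcript it was 37.1%, with matches in 38. Both genes have many processed copies in the genome, and a read that fits several places may be placed at a copy or dropped. How such reads were counted was not given in the sources used here. The table has only 2 rows named for copies of these genes, KRT18P55 with 8 counts and KRT8P41 with 1 count over the 9 libraries.

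The KRT8 row was among the most abundant of all rows. Its counts may include reads of KRT18, up to most of them, and the KRT18 row may hold reads of KRT8, since which strand was counted was not given in the sources used here. Of all counts only 10.9% to 14.3% per library fell in rows with no opposite-strand exon. In the controls it held 10269, 11346 and 10944 counts in replicates 1, 2 and 3, which is 2.82%, 2.82% and 2.29% of all counts. It held 8123, 7550 and 10964 counts with V. cholerae vesicles, which is 2.15%, 2.02% and 1.49%. It held 9848, 9874 and 7714 counts with E. coli vesicles, which is 2.48%, 2.43% and 1.81%. Within each replicate number the control library had the highest share, the E. coli library came next and the V. cholerae library had the lowest, and replicate 3 was lowest in all groups. Its rank among rows was 1 in all 3 controls, 3, 3 and 5 with V. cholerae vesicles and 4, 4 and 3 with E. coli vesicles. By its mean share over the libraries, 2.26%, it came in place 2 of the 15633 rows with a count. The only row above it was SNX22, opposite PPIB, at 2.27%, and just below came MIR6723 at 2.25%, LOC284889, and ATP6V1C2, opposite PDIA6, at 1.65%. The ranges over libraries of these rows overlapped that of KRT8, which ran from 1.49% to 2.82%, so this order is not fixed. The SNX22, MIR6723 and LOC284889 rows had their lowest mean share in the controls, where the KRT8 row had its highest. The ATP6V1C2 row was also highest there, at 1.69%, against 1.66% with V. cholerae and 1.60% with E. coli vesicles.

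The KRT18 row was small beside it. It held 73, 85 and 79 counts in the controls, 58, 64 and 96 with V. cholerae vesicles and 64, 80 and 56 with E. coli vesicles. As shares of all counts these are 0.0201%, 0.0212% and 0.0165% in the controls, 0.0154%, 0.0171% and 0.0131% with V. cholerae vesicles and 0.0161%, 0.0197% and 0.0131% with E. coli vesicles. The groups overlapped, the control library had the highest share within each number, and replicate 3 was again the lowest of each group. The exact binomial 95% interval of the share was 0.0157% to 0.0252% in control replicate 1. This interval of a single library is wider than the differences between group means. Those means were 0.0193% in controls, 0.0152% with V. cholerae vesicles and 0.0163% with E. coli vesicles. For the KRT8 row in the same library the interval was 2.77% to 2.88%. These intervals cover counting error only. By mean share the KRT18 row came in place 798.

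**Figure D2:**
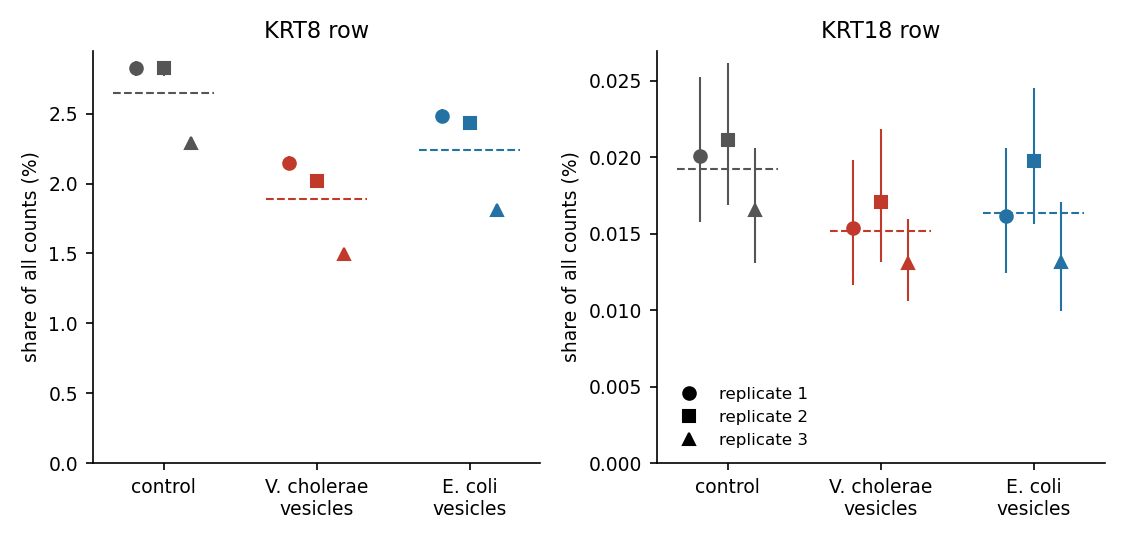
Share of all counts (%) in the KRT8 row (left) and the KRT18 row (right) for each library, with exact binomial 95% intervals (smaller than the symbols for KRT8) and dashed lines at group means. The KRT8 row lay at 2.29% to 2.82% in the controls, 1.49% to 2.15% with V. cholerae vesicles and 1.81% to 2.48% with E. coli vesicles, and both rows were lowest in replicate 3 of each group.

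The library totals ran from 363557 to 733412 counts. Replicate 3 of every group stood apart from replicates 1 and 2: rows with no opposite-strand exon took 14.1% to 14.3% of counts there and 10.9% to 11.7% in the other libraries. E. coli replicates 1 and 2 had fewer counts in rows that overlap another gene far from its 3′ end. In them, rows 3000 nt or more away held 12.9% and 11.8% as many counts as rows under 500 nt away, and in the other 7 libraries 16.8% to 17.7%. The shared stretch ends 934 nt before the 3′ end of the main KRT18 transcript. By the measure used for these distances, over all annotated exons of both genes, the overlap ends 2373 nt before the 3′ end of KRT18. The rows MIR6723 and MIR4461, of mitochondrial-like sequence, took 1.79% to 5.02% of counts, least in control replicate 1. The part of these values in the keratin differences was not tested.

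With V. cholerae vesicles the KRT8 row was lower than in the controls. The shares of all counts did not overlap, the lowest control being 2.29% and the highest V. cholerae library 2.15%, and 4.62% of the 3679 rows tested were lower in this way. Relative to the same-numbered control the share differed by -23.9%, -28.6% and -34.7% in replicates 1, 2 and 3. On the CPM scale (counts scaled to a common library size with edgeR's TMM factors) the row stood at 27982 ± 5362 in controls and at 19946 ± 5064 with V. cholerae vesicles (SD, n = 3). There the groups overlapped, since replicate 3 of the controls, at 21791, lay below V. cholerae replicates 1 and 2, at 23648 and 22014. The log2 fold change was -0.49 ± 0.29 (SE) in the fit by group, which did not call the row at an adjusted p under 0.05. It was -0.50 ± 0.08 (SE) with the replicate number as a block, which did, though no label says what a shared number marks. In the fit by group 0.0544% of rows were called in either direction. With the block 0.353% were called in either direction and 0.0815% lower, 3 rows of which KRT8 is 1. Over replicates 1 and 2 alone the row was also called, as were 0.800% of rows in the lower direction. This comparison is one for which the row was chosen, so nothing is read from these counts. Leaving out control replicate 2, V. cholerae replicate 1 or V. cholerae replicate 2 ended the call with the block, with log2 fold changes from -0.55 to -0.44 over all 9 libraries left out in turn.

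The KRT18 row had the same sign against control and did not pass the test. It stood at 221, 233 and 157 CPM in the controls and at 169, 187 and 124 CPM in the V. cholerae libraries, with means of 204 ± 40.7 and 160 ± 32.2 (SD, n = 3). The log2 fold change was -0.36 ± 0.29 (SE) by group (edgeR adjusted p = 0.999) and -0.35 ± 0.18 with the block (edgeR adjusted p = 0.678). The log2 ratios of same-numbered libraries were -0.39, -0.32 and -0.34, negative in 3 of 3 pairs, and 17.3% of rows tested were lower in all 3 pairs on this scale.

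With E. coli vesicles both rows lay between the other groups. The KRT8 row stood at 24684 ± 6557 CPM (SD, n = 3), and its log2 fold change from control was -0.18 ± 0.29 (SE) by group (edgeR adjusted p = 0.903) and -0.20 ± 0.08 with the block (edgeR adjusted p = 0.168). The background here was 0.190% of rows called by group and 2.28% with the block. Same-numbered ratios were -0.13, -0.13 and -0.35 on the log2 scale, so the difference was largest in replicate 3, and 20.0% of rows were lower in all 3 pairs. The KRT18 row stood at 180 ± 53.5 CPM (SD, n = 3), with a log2 fold change of -0.18 ± 0.29 by group (edgeR adjusted p = 0.908) and -0.20 ± 0.18 with the block (edgeR adjusted p = 0.589). Its same-numbered ratios were -0.26, -0.01 and -0.34. Without E. coli replicate 3 the fit by group gave 0.023 for KRT8 and 0.035 for KRT18, a turn of sign. With the block and the same library left out the values were -0.16 and -0.13. The V. cholerae and E. coli comparisons share their 3 controls, so their values are set side by side and not counted as support for each other.

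The direct contrast compares the vesicle groups with each other, in the same fit over all 9 libraries, so the controls still enter its scaling, filter and spread. It reuses the V. cholerae libraries for which the KRT8 row was chosen, so its values for KRT8 are not independent of that choice. The KRT8 row had a log2 difference of -0.31 ± 0.29 (SE), lower with V. cholerae than with E. coli vesicles, by group (edgeR adjusted p = 0.836), and -0.30 ± 0.08 with the block (edgeR adjusted p = 0.0871). Neither fit called it. Of all 3679 rows edgeR called 0 by group (0.00%), with 333 at an unadjusted p under 0.05, and limma voom called 0. DESeq2 called 7 (0.538%) of the 1301 rows for which it gave an adjusted p. With the block edgeR called 0.0544%. Over replicates 1 and 2 alone KRT8 was called lower, where 10.5% of rows were. The same-numbered ratios were -0.27, -0.37 and -0.27, and 17.9% of rows were lower in all 3 pairs. For the KRT18 row the difference was -0.18 ± 0.30 by group (edgeR adjusted p = 0.942) and -0.15 ± 0.19 with the block (edgeR adjusted p = 0.734), with same-numbered ratios of -0.13, -0.31 and -0.0014.

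**Figure D3:**
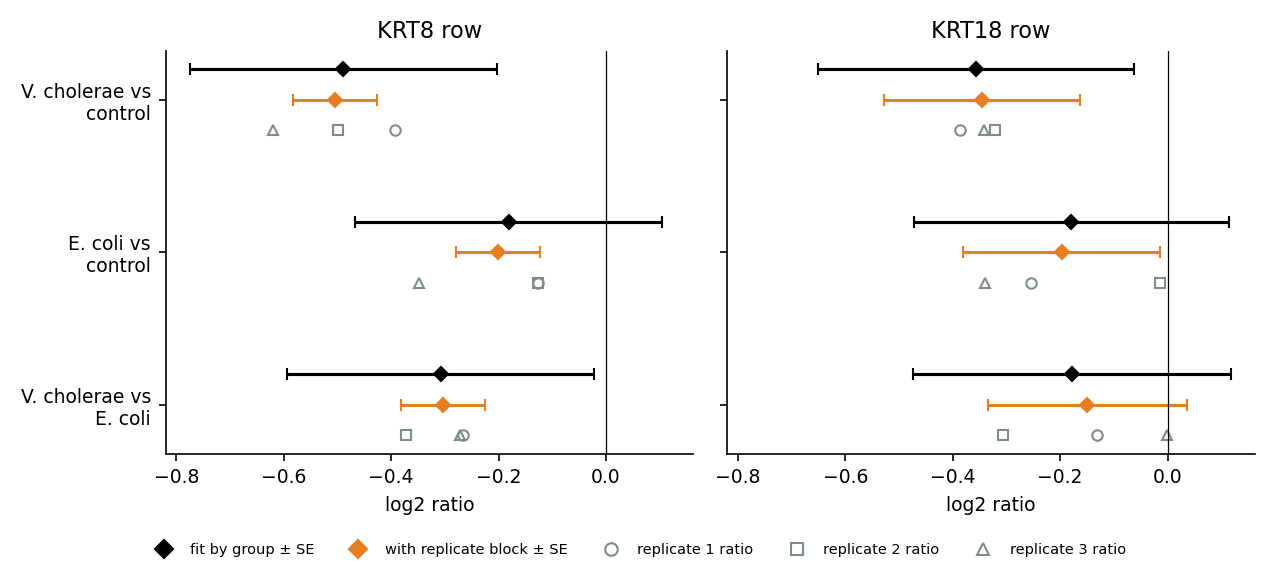
Log2 ratios of CPM for the KRT8 row (left) and the KRT18 row (right) in the 3 comparisons, with diamonds for the fit by group (black) and with the replicate block (orange), bars of 1 SE, and open symbols for ratios of same-numbered libraries. All estimates are below 0, from -0.50 ± 0.08 for KRT8 with V. cholerae vesicles with the block to -0.15 ± 0.19 for KRT18 in the direct contrast with the block.

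The balance between the rows does not depend on the scaling of libraries. The KRT18 row held 0.706%, 0.744% and 0.717% of the counts of both rows in the controls, 0.709%, 0.841% and 0.868% with V. cholerae vesicles and 0.646%, 0.804% and 0.721% with E. coli vesicles. The groups overlapped, and all 9 exact binomial 95% intervals overlapped as well, the widest span being 0.648% to 1.07% in V. cholerae replicate 2. The mean was 0.722% ± 0.019 in controls, 0.806% ± 0.085 with V. cholerae vesicles and 0.723% ± 0.079 with E. coli vesicles (SD, n = 3). The difference from control was 0.084 ± 0.050 percentage points (SE) with V. cholerae vesicles (two-sided exact permutation p = 0.3) and 0.0013 ± 0.047 with E. coli vesicles (exact permutation p = 1). Between the vesicles it was 0.082 ± 0.067 (exact permutation p = 0.3). With 3 libraries against 3 the smallest p this test can give is 0.1. The KRT8 row thus held 114 to 154 counts for each count in the KRT18 row, or 53.4 to 72.0 per exonic nt by the GENCODE 29 lengths of 6881 and 3218 nt. These lengths are of the whole genes, and the ratio has another meaning if a row's reads come only from the shared bases. KRT8 and KRT18 proteins form filaments in pairs, and these row counts cannot be read as the ratio of their messenger RNAs: by name alone, reads of KRT8 and of KRT18 in their shared bases cannot be told apart, and how much of the KRT8 row is KRT18 was not tested.

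**Figure D4:**
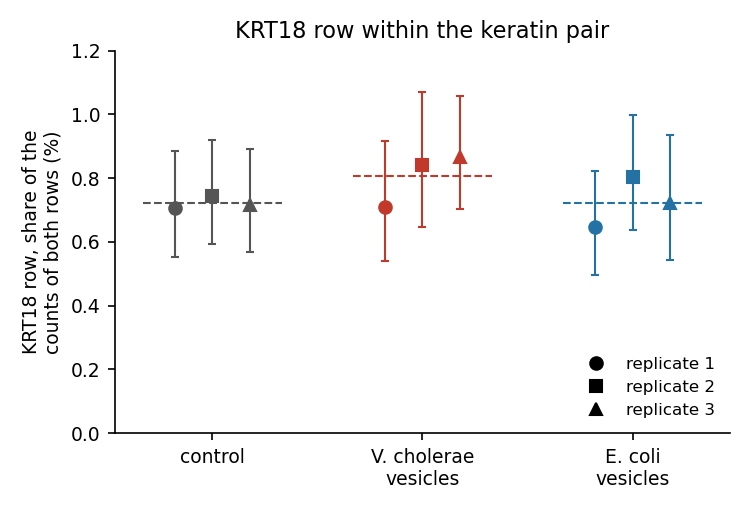
Share (%) of the KRT18 row in the counts of both keratin rows for each library, with exact binomial 95% intervals and dashed lines at group means. The libraries lay between 0.646% and 0.868%, and the intervals of all 3 groups overlapped.

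The rows also varied together over the libraries. The Pearson correlation of their log2 CPM over the 9 libraries was 0.94, and KRT18 came in place 8 of the 3678 other rows tested by likeness to KRT8. The median correlation of all rows with KRT8 was -0.15. These 9 points share depth, scaling and the offset of replicate 3, so the values are descriptions and no p is given. Among the 1175 rows with at least 100 CPM on average, the row most like KRT8 was DNAH11, opposite CDCA7L (0.96). SERHL, opposite the ribosome biogenesis gene RRP7A (0.96), and HNRNPU-AS1 (0.95) followed. RABGEF1 (0.95) and PKMYT1, named for a kinase that restrains entry into mitosis and opposite PAQR4 and KREMEN2 (0.94), came next. The rows most like KRT18 were MIF4GD, opposite the mitochondrial ribosome gene MRPS7 (0.96), PKMYT1 (0.95), LOC101929718 (0.95), SYNC, opposite the chromatin gene RBBP4 (0.95), and DNAH11 (0.95). DNAH11 and PKMYT1 stand on both lists. The DNAH11 row stood at 1511, 1536 and 910.0 CPM in control replicates 1, 2 and 3, and at 1194, 1096 and 694 CPM with V. cholerae vesicles, so it too was lowest in replicate 3.

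The other keratin rows had few counts. Of 52 rows named for other type I and type II keratins, 17 had at least 1 count over the 9 libraries, with 286 counts in all, against 86632 for KRT8 and 655 for KRT18. Only KRT86, named for a type II hair keratin, passed the filter on low counts. It held 16, 20 and 17 counts in controls, 6, 15 and 16 with V. cholerae vesicles and 10, 8 and 16 with E. coli vesicles. In raw counts the groups met at 16. By share of all counts V. cholerae replicate 2, with 15 of 374515, lay above control replicate 3, with 17 of 477888, so these groups overlapped. The log2 fold change of KRT86 was -0.77 ± 0.41 (SE) with V. cholerae vesicles (edgeR adjusted p = 0.999) and -0.61 ± 0.41 with E. coli vesicles (edgeR adjusted p = 0.634). The row of KRT19, the type I keratin that joins KRT8 in many simple epithelia, held 4 to 16 counts and has no opposite-strand exon. The row of KRT20, the intestinal differentiation keratin, held 2 counts in all, that of KRT7, a type II keratin of ducts, 6, and that of KRT10, of the upper epidermis, 38. The rows of the basal keratin KRT14 and the stress keratins KRT6A, KRT16 and KRT17 were at 0. Besides KRT8 and KRT18, the only keratin gene with a row of the table opposite it by symbol was KRT10, and that row, TMEM99, was at 0.

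**Figure D5:**
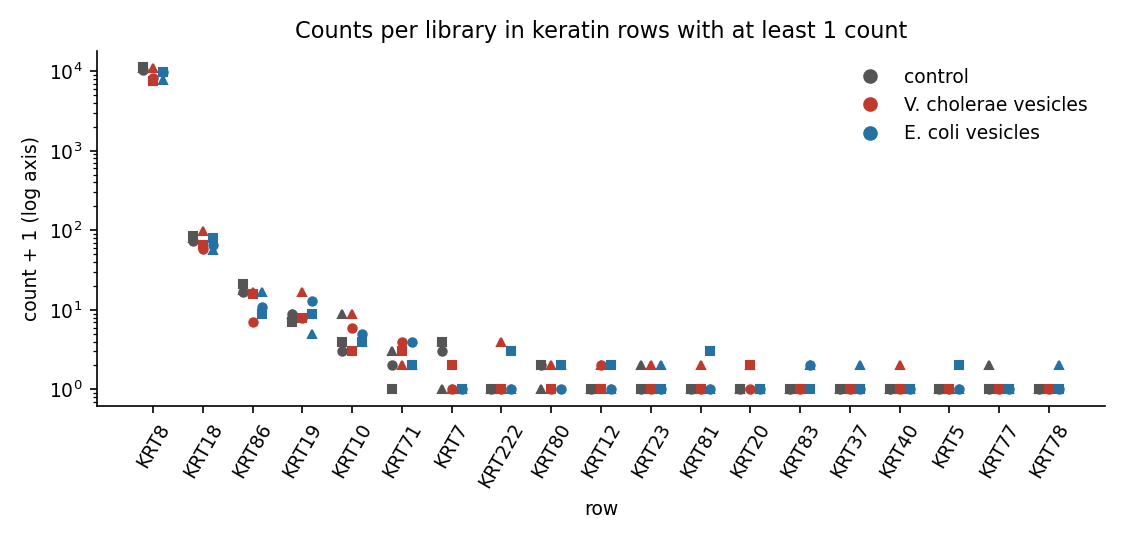
Counts per library plus 1 (log axis) in each keratin row with at least 1 count, with colours for the groups and circles, squares and triangles for replicates 1, 2 and 3. The KRT8 row holds 7550 to 11346 counts, the KRT18 row 56 to 96, KRT86 6 to 20 and KRT19 4 to 16.

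Few rows named for the keratins' partners could be tested, and none passed the test in any comparison. Since the counted strand was not given, a row in these lists need not hold reads of the gene it names. Of 9 rows in the lists below, 0 were called by edgeR with or without the block. Over all rows tested, 0.00% to 2.28% were called in these fits. By unadjusted p under 0.05 there were 0 by group and 1, YWHAE with E. coli vesicles, with the block. Over all 3679 rows that count with the block was 730 for E. coli vesicles. Of 23 rows for desmosome and keratin-linking proteins, 5 passed the filter on low counts. Their median log2 fold change was 0.06 with V. cholerae vesicles and -0.57 with E. coli vesicles, beside 0.01 and -0.01 over all rows tested. No spread is given for these medians of 5 rows, and -0.57 is the value of the tested row not named below. Counts were low, at 3 to 18 per library for LAD1 and 3 to 21 for ITGA6. The PLEC row, of plectin, the linker that ties keratin filaments to other filaments and to cell junctions, had log2 0.47 ± 0.38 with V. cholerae vesicles and 0.00 ± 0.39 with E. coli vesicles. DSG3, of a desmosomal cadherin, had 0.07 ± 0.33 and -0.09 ± 0.34. LAD1, of an anchoring filament protein that binds keratins, had -0.44 ± 0.50 and -0.63 ± 0.52. ITGA6, of the hemidesmosome integrin and opposite ITGA6-AS1, AC078883.1 and AC078883.2, had 0.06 ± 0.54 and -0.60 ± 0.59. The DSP row, of desmoplakin, which anchors keratin at desmosomes, held 31 counts in all and was not tested.

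Among 20 genes for keratin chaperones and binding proteins, 3 rows were tested. CFLAR, of a caspase-8 inhibitor and opposite IMPDH1P10 and CFLAR-AS1, had log2 0.20 ± 0.21 with V. cholerae vesicles and 0.25 ± 0.21 with E. coli vesicles. HSPA8, of the constitutive HSP70 chaperone, had -0.08 ± 0.38 and 0.01 ± 0.37. YWHAE, of a 14-3-3 protein, had 0.58 ± 0.49 and 1.00 ± 0.48, the latter not called (edgeR adjusted p = 0.445, and 0.118 with the block). Of 13 other intermediate filament rows only LMNA, of the nuclear lamins A and C, was tested, at 0.32 ± 0.47 and -0.04 ± 0.49, and the row of the mesenchymal filament VIM was at 0.

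Marker rows were set beside the tissue label by name. Since the counted strand was not given, a row need not hold reads of the gene it is named for. These rows therefore cannot check the label. The 12 epithelial markers other than KRT8 and KRT18 all had counts over the 9 libraries together, though some were at 0 in single libraries. They summed to only 35 to 82 counts per library. EPCAM held 5 to 17 and CDH1 0 to 9, and EPCAM and OCLN, the 2 that were tested, did not pass the test. As shares of all counts these 12 rows took 0.0113% to 0.0143% in controls, 0.00926% to 0.0136% with V. cholerae vesicles and 0.0108% to 0.0161% with E. coli vesicles, ranges that overlap. Of 9 fibroblast marker rows 6 were at 0, among them DCN, LUM and PDGFRA, and the list summed to 2 to 10 counts. Of 9 leukocyte rows 5 were at 0, among them PTPRC, CD3D and CD3E, while CD68, LYZ and CD14 held most of the 35 to 118 counts, and of 5 endothelial rows CDH5, KDR and VWF were at 0. The other endothelial rows, PECAM1 with 62 counts in all and CLDN5 with 44, brought that list to 5 to 26 counts per library, and CDH1 held 32 in all. Fewer cells of a type and less RNA per cell cannot be told apart in bulk samples.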

How the data were processed

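The deposited table holds raw whole-number counts per gene row, made by the authors before deposition, with 1 column for each of 9 libraries. The submitters' processing notes name HTSeq 0.6.1, the build hg19, TopHat2 2.0.12 with Bowtie2 2.2.3, and also SAMtools 0.1.19, FastQC and Cufflinks 2.2.1, and per the labels' protocols the libraries were TruSeq stranded mRNA with single 50 bp reads. Its strand setting, annotation and filters were not given in the sources used here.

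Counts were fitted with edgeR 4.0.16 (R 4.3.3): filterByExpr by group (minimum count 10, minimum total 15), TMM, the robust quasi-likelihood test over 3679 rows, and Benjamini-Hochberg adjustment over all of them, called under 0.05. The SE is the log2 fold change divided by the square root of F. The fit by group was run on simulated counts with the same spread for all rows and no offset of replicate 3. That check does not cover the replicate block. The members, gene lists and tests were chosen with earlier results of these data known. Named rows were the members, keratin rows past the filter, neighbours in level, the 5 rows most correlated with each member at 100 CPM or more, and in each list the 4 rows with the highest mean CPM that were tested plus any called. Examples from keratin and marker rows too low to test were chosen after their values were seen. Exons and transcript sequences came from GENCODE 29. A list of candidate keratin gene regulators is not reported here.

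Residuals from group means correlated between same-numbered libraries at 0.115 to 0.677, above the limit of 0.1 set for pairing. The range was 0.450 to 0.677 for replicate 3 and 0.115 to 0.328 for replicates 1 and 2. Replicate 1 of a group and replicate 2 of another group correlated alike, at 0.133 to 0.350. The limit therefore cannot tell whether like numbers belong together among replicates 1 and 2. A replicate block is given beside each result as an alternative. V. cholerae replicates 1 and 2 differed little beyond sampling noise (chi-square per degree of freedom 1.05, against 1.33 in controls and 1.90 in E. coli libraries). Both stayed in as separate libraries, and an alternative sums them. Alternatives included other scaling, filters, limma voom 3.58.1, DESeq2 1.42.0 and leaving out each library.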

Additional observations from a re-analysis of the deposited data

How the results depend on the processing

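For the KRT8 row with V. cholerae vesicles, the log2 fold change of -0.49 by group was called only with the replicate block (-0.50) and in replicates 1 and 2 only (-0.45). With the block and 1 library left out, an alternative added after seeing the data, it ran from -0.55 to -0.44 (-0.48 without V. cholerae replicate 3). The row was chosen for this comparison, so its calls are no measure of stability. Without the block, leaving out each library gave -0.65 to -0.29 and no call. In the direct contrast KRT8 was called in replicates 1 and 2 only (-0.32) and, with the block, without E. coli replicate 3 (-0.34), and it ran from -0.51 to -0.11 with libraries left out and from -0.34 to -0.27 with the block too.

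For KRT8 with E. coli vesicles, leaving out each library gave -0.33 to 0.023, the last without E. coli replicate 3, and -0.24 to -0.12 with the block. For KRT18 it gave -0.53 to -0.19 with V. cholerae vesicles, -0.40 to 0.035 with E. coli vesicles, the last without E. coli replicate 3, and -0.39 to 0.045 in the direct contrast, the last without E. coli replicate 2. With the block these KRT18 ranges were -0.40 to -0.31, -0.29 to -0.13 and -0.22 to -0.056, all below 0. The difference in the KRT18 row's share of the pair ran from 0.053 to 0.13 percentage points with V. cholerae vesicles, from -0.039 to 0.040 with E. coli vesicles and from 0.044 to 0.13 between vesicles. The E. coli value turned below 0 without E. coli replicate 2 (-0.039), control replicate 1 (-0.0068) or control replicate 3 (-0.0014). The cause of these changes was not tested.

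A total without the 20 other rows with the most counts raises every share by construction. KRT8 then took 3.29% in controls, 2.36% with V. cholerae and 2.90% with E. coli vesicles, and KRT18 0.0239%, 0.0190% and 0.0211%. Without MIR6723 and MIR4461, or over the rows tested only, shares moved by less than 1 SD. RLE factors, library size alone, both filters, the fit without the robust option, voom, DESeq2, only the 2 groups compared, and summed V. cholerae replicates changed no sign and no call of either row. Over all rows tested, those called by group and with the block numbered 2 and 13 (V. cholerae), 7 and 84 (E. coli) and 0 and 2 (direct contrast). In the direct contrast voom called 0, and DESeq2 called 7 of the 1301 rows for which it gave an adjusted p. Depth limits the KRT18 row, with 56 to 96 counts per library, and KRT86, with 6 to 20.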
